A study of Mus musculus with 10 samples.

Results

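The 10 genes described here, C1qa, C1qb, C1qc, Csf1r, Cx3cr1, Laptm5, Fcgr3, Trem2, Tyrobp and Ctss, are used in the brain mainly by microglia, its resident macrophages. Their members on the array were all probe sets whose platform annotation gives exactly 1 gene symbol, equal to one of these 10. That rule found 20 probe sets among 45037 that are not controls. Expression was measured in whole hippocampus, with 1 array for each of 10 inbred female Balb c/J mice, so the mice of both groups were genetically alike. The question was whether these genes differed between mice that explored an open field arena much and little. All mice came from Jackson and shared a birth date, and the labels and methods name no drug or surgery. The 5 High Exploration and the 5 Low Exploration mice had been ranked by a composite of open field measures taken over several sessions and lighting conditions. All had therefore been tested repeatedly before the tissue was taken. The labels give no age, and according to the methods testing began in young adult mice. The series' design text is about a handling experiment on CA1 tissue instead, so tissue and groups were taken from the labels.

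Microglia survey brain tissue, remove debris and prune synapses. C1qa, C1qb and C1qc encode the 3 chains of C1q, the molecule that starts the classical complement pathway and tags synapses and debris for removal. Csf1r is the growth factor receptor on which microglia depend for survival, and Cx3cr1 receives the neuronal signal Cx3cl1. Trem2 senses lipids and needs the adaptor Tyrobp to signal, and Fcgr3 binds the constant part of antibodies. Laptm5 is a lysosomal membrane protein, and Ctss is a cathepsin, a protein-cutting enzyme of the lysosome.

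Macrophage genes are commonly switched on by PU.1, the product of Spi1, which binds a purine-rich core, GAGGAA. RefSeq promoters of build GRCm38.p6, from 250 bases before to 50 after the gene start, were at hand for 7 of the 10 genes, Fcgr3, Ctss, Laptm5, C1qb, C1qc, Cx3cr1 and Trem2. GAGGAA was present on either strand in 6 of the 7, all but Cx3cr1, against 28.3% of 32851 promoters of the same length. The longer form GAGGAAGT, which contains GAGGAA, was present in 2 of the 7, Ctss and C1qc, against 3.2%. These are descriptions of letters and show no binding. The stretches printed are those of the C1q chains at hand and of the 3 genes with a probe set whose groups did not overlap. Capitals mark the motif, which reads TTCCTC or ACTTCCTC where it lies on the opposite strand.
Fcgr3, chr1:171059384-171059523, minus strand: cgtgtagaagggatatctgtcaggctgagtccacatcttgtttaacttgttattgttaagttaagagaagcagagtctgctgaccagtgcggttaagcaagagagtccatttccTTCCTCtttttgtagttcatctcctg
Ctss, chr3:95526666-95526805, plus strand: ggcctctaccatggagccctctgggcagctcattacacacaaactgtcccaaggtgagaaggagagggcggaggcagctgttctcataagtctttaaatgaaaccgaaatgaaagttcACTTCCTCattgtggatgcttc
Laptm5, chr4:130913196-130913335, plus strand: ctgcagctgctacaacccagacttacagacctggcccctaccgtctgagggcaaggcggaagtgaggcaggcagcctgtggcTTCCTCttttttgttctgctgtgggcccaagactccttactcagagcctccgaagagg
C1qb, chr4:136886181-136886320, minus strand: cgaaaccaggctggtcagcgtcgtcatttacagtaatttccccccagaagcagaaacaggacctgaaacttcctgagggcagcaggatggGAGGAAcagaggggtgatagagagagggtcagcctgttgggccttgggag
C1qc, chr4:136892985-136893124, minus strand: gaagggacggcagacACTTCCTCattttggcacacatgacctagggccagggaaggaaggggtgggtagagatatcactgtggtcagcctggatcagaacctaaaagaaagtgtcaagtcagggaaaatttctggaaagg

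In Ctss the GAGGAAGT motif spanned the gene start, from base −2 to base 6. The motif of C1qb lay from −30 to −25 and that of Laptm5 from −38 to −33. C1qc carried its GAGGAAGT further up, from −195 to −188. The printed Fcgr3 stretch held GAGGAA from −6 to −1, and a second Fcgr3 promoter held it from −15 to −10. The 3 C1q genes sit side by side on chromosome 4, within 18719 bases from the first base of C1qb to the last of C1qa. C1qb and C1qc are 3600 bases apart, and C1qc and C1qa 2979 bases.

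Values are MAS 5.0 signals, on a linear scale in arbitrary units set by scaling each array. Differences are High minus Low Exploration on the log2 scale, with their standard errors (SE) and limma p-values adjusted over all 45037 probe sets, n = 5 mice per group. As deposited, the median signal of an array was lower in High (143 to 205) than in Low Exploration (227 to 272), with exact permutation p = 0.00794, the smallest that 5 against 5 arrays allow. The median log2 difference over all probe sets was −0.47, and 69.0% of them lay below 0. The spiked poly-A controls read 12.49 ± 0.47 on High and 14.12 ± 0.44 on Low arrays (log2, SD, n = 5, exact permutation p = 0.00794). Hybridisation controls differed in the same direction, at 13.63 ± 0.31 and 14.24 ± 0.29 (exact permutation p = 0.0159). The log2 ratio of the 3′ to the 5′ Gapdh control probe set, a sign of RNA integrity and labelling, was higher in High, at 4.72 ± 0.48, than in Low Exploration, at 3.72 ± 0.23 (SD, n = 5, exact permutation p = 0.0159). The same ratio for the actin control did not separate the groups. It ran from 4.33 to 5.90 on High arrays and from 4.28 to 5.98 on Low arrays. Its means were 5.30 ± 0.58 and 4.97 ± 0.75 (exact permutation p = 0.484). The part of these array differences in the gene values was not tested, other than by the rescalings given beside results of the members. Differences of the other genes are given as deposited only. In whole tissue, fewer microglia and less RNA per microglial cell cannot be told apart. Each array is a different mouse, so p-values refer to the spread between mice of 1 cohort.

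None of the 20 probe sets passed the threshold, an adjusted p under 0.05. Limma called 0 of 20, against 0.0711% of all probe sets. At an unadjusted p under 0.05, 5 of the 20 were lower in High Exploration, against 16.8% of all probe sets, and 1 was higher, against 4.48%. Differences were below 0 for 13 and above 0 for 7, with a median of −0.80 beside −0.47 over all probe sets. Every High array lay below every Low array for 2 probe sets, of Laptm5 and Fcgr3, where 4.84% of all probe sets did so. Ctss was the only member whose groups did not overlap in the other direction, as 1.17% of all probe sets did. With 1 probe set per gene, the brightest, 6 genes lay below 0 and 4 above, with a median of −0.81.

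**Figure D1:**
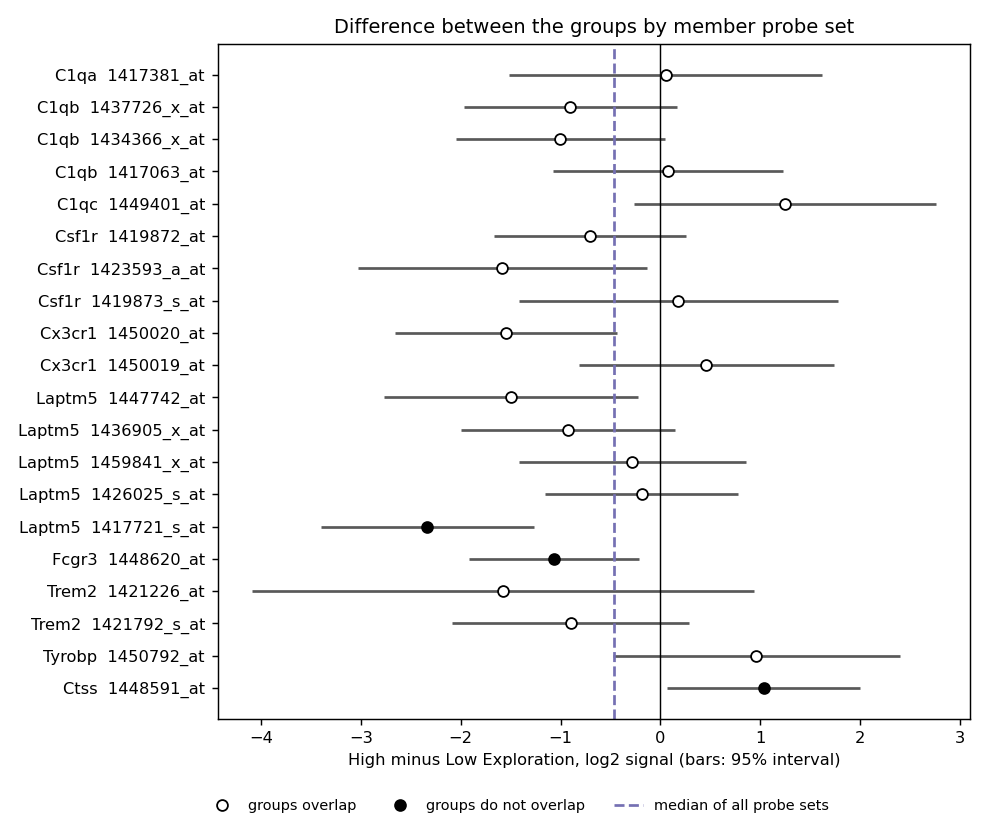
Log2 difference in signal (High minus Low Exploration, horizontal axis) of each of the 20 member probe sets, with its 95% interval from limma (5 arrays per group); filled points are probe sets whose groups did not overlap, and the dashed line is the median of all probe sets, −0.47. Laptm5 1417721_s_at lies farthest to the left at −2.33 and C1qc farthest to the right at 1.25.

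Because a constant scaling moves every probe set of an array alike, each signal was also ranked within its own array. The percentile is the rank of a probe set among the 45037 of that array, as a percent. By an exact permutation test over all splits of the arrays into 2 groups of 5, 4 member probe sets had a lower percentile in High Exploration at an unadjusted p under 0.05, against 7.01% of all probe sets. They were 1 each of C1qb and Csf1r and 2 of Laptm5. Ctss alone had a higher one, against 7.32% of all. None of these p-values is adjusted, and 0.00794 is the lowest possible.

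How far above background the members read was judged from 44 probe sets of olfactory receptor genes, whose known place of use is the nose. Their 95th percentile was 273 to 402 on the High and 521 to 621 on the Low arrays. On all 10 arrays, 6 member probe sets read above that level, namely both x_at probe sets of C1qb, Csf1r 1419872_at, Laptm5 1447742_at and 1436905_x_at, and Ctss. Another 11 did so on 1 to 9 arrays. Both Cx3cr1 probe sets and Trem2 1421792_s_at did so on none, so these probe sets read at the level of olfactory receptors.

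**Figure D2:**
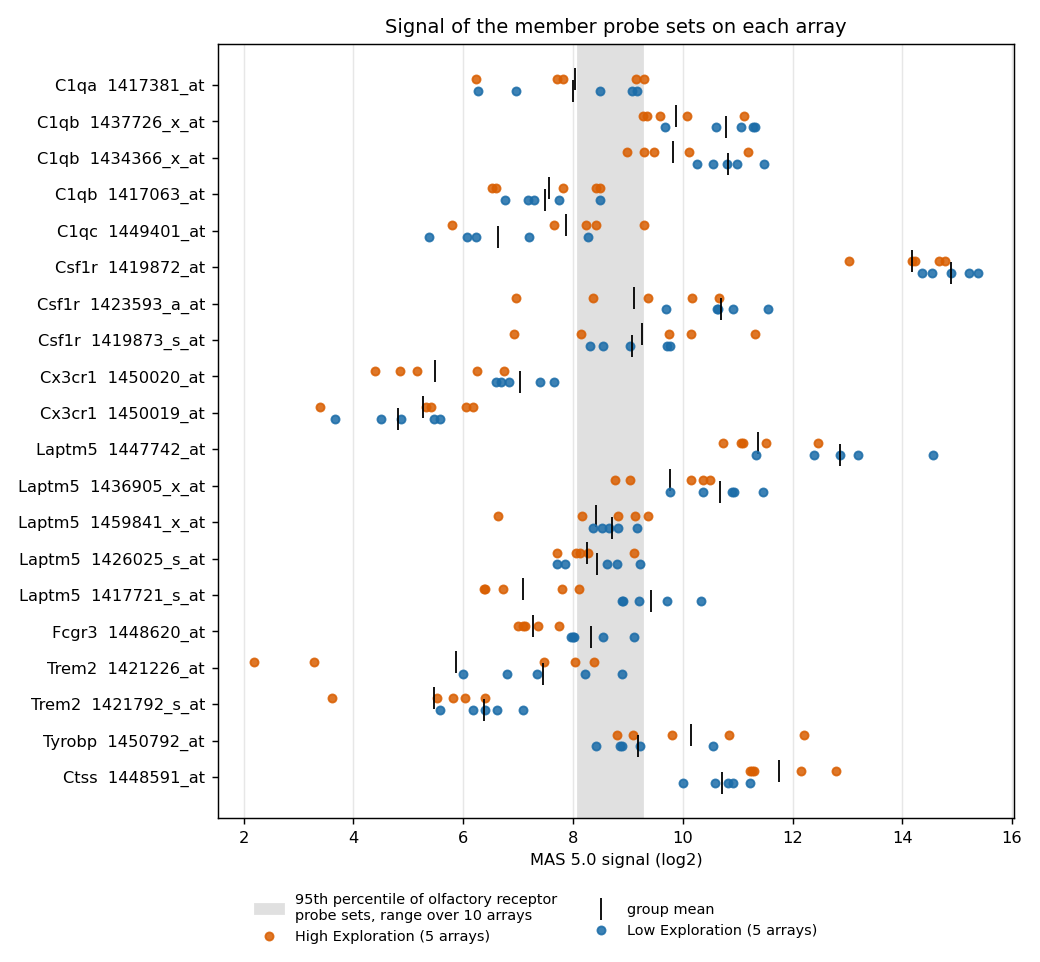
MAS 5.0 signal (log2, horizontal axis) of the 20 member probe sets on each of the 10 arrays; each point is 1 mouse, the vertical bars are group means, and the grey band spans the 95th percentile of the olfactory receptor probe sets over the arrays. Csf1r 1419872_at, Laptm5 1447742_at and Ctss lie to the right of the band on every array, while Cx3cr1 lies to its left.

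None of the 3 chains of C1q passed the test, and their differences did not share a direction. C1qa, measured by 1 probe set, read 75.3, 210.2, 568, 227 and 631 in High Exploration replicates 1 to 5 and 76.9, 543, 572, 359 and 125 in Low Exploration replicates 1 to 5. Both groups held low and high mice, with replicate 1 lowest in each, and the difference was 0.05 (SE 0.72, adjusted p = 0.973). Its 95% interval ran from −1.52 to 1.62, so changes of over 2-fold in either direction lie within it. Leaving out replicate 3 or 5 of the High mice, or 1 or 5 of the Low mice, turned the sign of the C1qa difference, to values between −0.38 and −0.20.

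C1qb was the brightest of the chains and had 3 probe sets. C1qb 1437726_x_at read 771, 622, 2219.7, 649.8 and 1085 in High and 2478, 1552, 2128, 823 and 2563 in Low Exploration. High replicates 1, 2 and 4 read below every Low mouse, replicate 5 above 1 of them, and replicate 3 as high as most Low mice. The difference was −0.90 (SE 0.49, adjusted p = 0.298). C1qb 1434366_x_at read 507, 717, 2329, 628 and 1114 in High and 1784, 1504, 2849, 1228 and 2029.9 in Low Exploration. Again High replicate 3 overlapped the Low mice, the other 4 High mice lay below all of them, and the difference was −1.0 (SE 0.48, adjusted p = 0.251). Within arrays its percentile averaged 85.5 ± 5.69 for High and 92.6 ± 2.48 for Low mice (SD, n = 5, exact permutation p = 0.0476, unadjusted). The suffix x_at marks probe sets whose probes can also match other transcripts.

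The last probe set of C1qb gave another picture. C1qb 1417063_at read 92.3, 97.1, 343, 360.3 and 225 in High and 145, 157, 109, 214 and 362 in Low Exploration. The groups ranged over the same values, and the difference was 0.08 (SE 0.53, adjusted p = 0.944). Its sign turned, to between −0.15 and −0.0025, when High replicate 3 or 4 or Low replicate 1 or 3 was left out. It read above the olfactory receptor level on 1 array, whereas the x_at probe sets did so on all 10. With groups and array medians taken out, the pair of x_at probe sets followed each other over the 10 arrays (r = 0.82, Spearman rho = 0.73). Neither followed 1417063_at, at r = 0.19 and 0.14. These r describe arrays that share scaling and sequence and carry no p.

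C1qc had the largest difference above 0 of the 20 probe sets. It read 202, 343, 629.8, 303 and 55.3 in High and 309.5, 148, 41.5, 67.4 and 75.7 in Low Exploration. High replicates 1 to 4 were above Low replicates 2 to 5, and High replicates 2 and 3 were also above Low replicate 1. High replicate 5 was among the lowest. The difference was 1.25 (SE 0.70, adjusted p = 0.311). Within arrays its percentile averaged 59.9 ± 23.3 for High and 30.7 ± 17.1 for Low mice (SD, n = 5, exact permutation p = 0.0714). C1qc read above the olfactory receptor level on 2 of 10 arrays, both High, where that level was lower (273 to 402) than on Low arrays (521 to 621).

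Across the 10 arrays, with group and array medians taken out and the brightest probe set of each gene, C1qa and C1qb correlated at r = 0.01, C1qa and C1qc at −0.30 and C1qb and C1qc at 0.31. C1qa read above the olfactory receptor level on 3 of 10 arrays and C1qc on 2, so these r say little of the transcripts. The r of C1qc and C1qb with the adaptor Tyrobp were 0.80 and 0.67, and that of C1qa with Fcgr3 was 0.71. There are 45 such pairs among 10 arrays, so r of this size are descriptions only. The 5 genes most like the mean of the chains over the 10 arrays were Tmem9b, Ubxn4, Sec61a1, Clip3 and Ninj1, all at r = 0.93, chosen from 18063 probe sets with 1 symbol and a mean signal above the median. The most like member was Tyrobp, at r = 0.71.

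**Figure D3:**
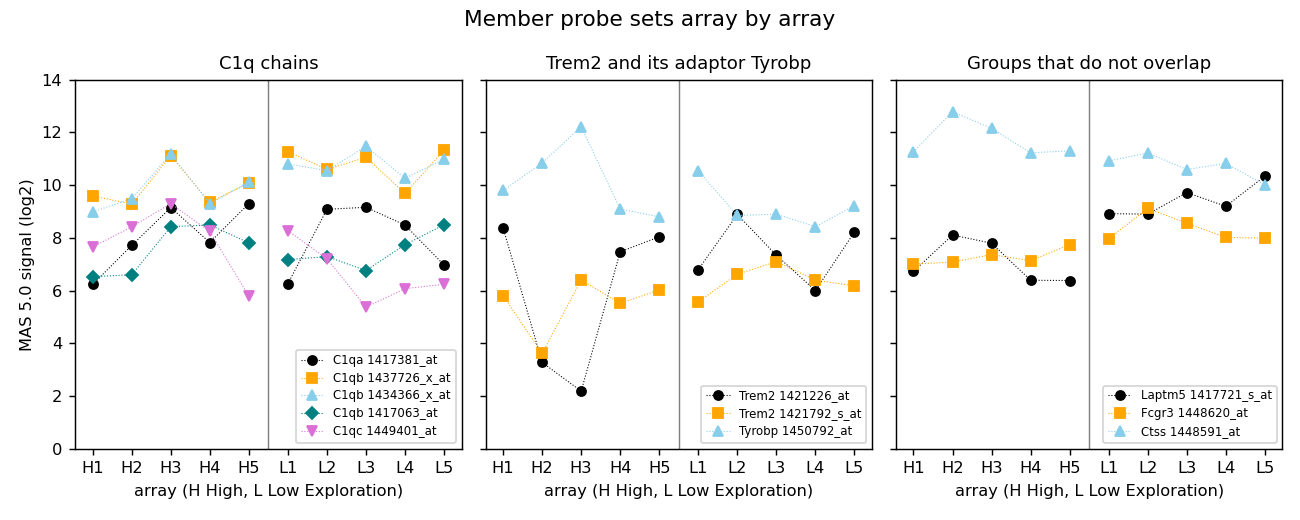
MAS 5.0 signal (log2, vertical axis) on each array (H1 to H5 High Exploration, L1 to L5 Low Exploration replicates) for the C1q chains, for Trem2 with its adaptor Tyrobp, and for the 3 probe sets whose groups did not overlap. The C1qb x_at pair runs together while C1qa and C1qc take other courses, and Tyrobp is highest on H3, where Trem2 1421226_at is lowest.

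Among the receptors, Csf1r showed 3 different patterns from 3 probe sets. Csf1r 1419872_at was among the brightest on the array, at 8339, 18469, 28228, 19175 and 25978 in High and 21129.5, 30474, 38193, 23859 and 42569 in Low Exploration. High replicate 1 was far below the rest, and the groups overlapped in the middle. The difference was −0.71 (SE 0.44, adjusted p = 0.361). Quantile normalisation and cyclic loess parted its groups, at −1.25 and −1.30 (limma adjusted p = 0.281 for both), while median centring and equal hybridisation controls gave −0.17 and −0.10. Ranked within arrays the groups did separate, at a mean percentile of 98.7 ± 0.675 against 99.5 ± 0.191 (SD, n = 5, exact permutation p = 0.00794), which is a difference of under 1 percentile point.

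Csf1r 1423593_a_at read 665, 328, 125, 1158 and 1612 in High and 833, 1606, 1933, 1585 and 2999 in Low Exploration. High replicates 1 to 3 were below every Low mouse, and replicates 4 and 5 within the Low range. The difference was −1.58 (SE 0.67, unadjusted p = 0.0340, adjusted p = 0.205). Csf1r 1419873_s_at read 283, 1138, 2544, 122 and 864 in High and 842, 319, 376, 875 and 528 in Low Exploration. The High mice spread over 20.9-fold and held both the lowest and the highest signal. The difference was 0.18 (SE 0.74, adjusted p = 0.905), and it turned to between −0.34 and −0.01 without High replicate 2 or 3 or Low replicate 2. Its deviations ran against those of 1423593_a_at, at r = −0.73 over the 10 arrays.

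Cx3cr1 was dim in both its probe sets. Cx3cr1 1450020_at read 76.7, 28.9, 35.9, 108 and 21.0 in High and 96.4, 103, 114, 201 and 169 in Low Exploration. Only High replicate 4 reached into the Low range, and the difference was −1.55 (SE 0.51, unadjusted p = 0.0100, adjusted p = 0.152). Cx3cr1 1450019_at read 40.2, 72.9, 10.5, 65.9 and 42.9 in High and 22.7, 12.7, 44.3, 29.2 and 47.8 in Low Exploration. The groups overlapped widely, and the difference was 0.46 (SE 0.59, adjusted p = 0.664). Averaging both probe sets moved the value for Cx3cr1 from −1.55 to −0.54.

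Fcgr3, with 1 probe set, was lower in every High mouse than in any Low mouse. It read 129, 136, 165, 140.4 and 215 in High and 251, 555, 376, 259 and 255 in Low Exploration. The gap between the groups lay between 215 in High replicate 5 and 251 in Low replicate 1. Fcgr3 was 2.09-fold lower in High Exploration, a difference of −1.06 (SE 0.39, unadjusted p = 0.0184, adjusted p = 0.171). After median centring, quantile normalisation, cyclic loess or scaling to equal hybridisation controls its groups overlapped, with differences between −0.53 and −0.46. On 1 of the 10 arrays it exceeded the olfactory receptor level.

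Trem2 gave the widest spread. Trem2 1421226_at read 334, 9.70, 4.55, 178 and 263 in High and 112, 474, 162, 64.1 and 299 in Low Exploration. High replicates 2 and 3 were near the floor of the array, the other 3 High mice lay within the Low range, and the difference was −1.58 (SE 1.16, adjusted p = 0.434). Its percentile difference turned above 0, to between 1.60 and 3.28, without High replicate 2 or 3 or Low replicate 2. Trem2 1421792_s_at ranged from 12.3 to 84.8 in High and 47.7 to 137 in Low Exploration, all under the olfactory receptor level, with a difference of −0.90 (SE 0.55, adjusted p = 0.349).

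Tyrobp, the adaptor through which Trem2 signals, was the brighter of the pair. Tyrobp read 891, 1835, 4759, 547 and 445 in High and 1492, 462, 477, 344 and 599.6 in Low Exploration. High replicates 2 and 3 were the highest of all mice, and the other High mice lay within the Low range. The difference was 0.96 (SE 0.66, adjusted p = 0.406). The mice with the highest Tyrobp, High replicates 2 and 3, were those with the lowest Trem2 1421226_at, and r between the genes was −0.75 over the 10 arrays. Trem2 1421226_at exceeded the olfactory receptor level on 1 array, so its ranks are mostly those of background readings. All 5 High arrays and 2 of the 5 Low arrays read Tyrobp above the olfactory receptor level of their own array. That level was 273 to 402 on High and 521 to 621 on Low arrays. Low readings of 462 and 477 fell under it but lay above every High level, so these counts do not compare the groups.

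Laptm5 was the member with the smallest p and had 5 probe sets, each with a difference below 0 as deposited. Laptm5 1417721_s_at read 106, 276, 223, 84.0 and 83.5 in High and 484, 478, 843, 588 and 1298 in Low Exploration. The highest High mouse, replicate 2, was below the lowest Low mouse, so the groups did not overlap. It read above the olfactory receptor level on 3 of the 10 arrays, 1 High and 2 Low, so its fold rests mostly on signals within the range of that yardstick. It was 5.04-fold lower in High Exploration, a difference of −2.33 (SE 0.49, 95% interval −3.40 to −1.27), with unadjusted p = 0.000416 and adjusted p = 0.101. The percentile averaged 45.1 ± 17.4 for High and 79.0 ± 7.99 for Low mice (SD, n = 5, exact permutation p = 0.00794). After scaling to equal hybridisation controls the difference was −1.73 and the groups overlapped, while median centring, quantile normalisation and cyclic loess left them apart, with differences between −1.97 and −1.80.

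The brightest Laptm5 probe set, 1447742_at, read 1702, 2179.9, 2919, 5626 and 2131 in High and 9349, 2577, 5348, 7499 and 23995 in Low Exploration. Low replicate 5 was far above the rest, and the groups overlapped because High replicates 3 and 4 exceeded Low replicate 2. The difference was −1.50 (SE 0.58, unadjusted p = 0.0242, adjusted p = 0.184), and the exact permutation p of its percentile was 0.0159. Laptm5 1436905_x_at ranged from 436 to 1450.4 in High and 868 to 2815 in Low Exploration, with a difference of −0.92 (SE 0.50, adjusted p = 0.292).

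The other two Laptm5 probe sets differed little. Laptm5 1459841_x_at ranged from 99.9 to 662 in High and 329 to 577 in Low Exploration, and its difference of −0.28 (SE 0.52, adjusted p = 0.774) became 0.15 to 0.33 under the 4 rescalings. Laptm5 1426025_s_at ranged from 208 to 553 in High and 209.7 to 598 in Low Exploration, and its difference of −0.19 (SE 0.44, adjusted p = 0.825) became 0.26 to 0.42. After median centring the differences of the other 3 probe sets were −1.80 for 1417721_s_at, −0.96 for 1447742_at and −0.39 for 1436905_x_at (limma adjusted p = 0.147, 0.399 and 0.713), so none passed. Over the arrays 1426025_s_at followed 1447742_at (r = 0.84), but neither followed 1417721_s_at (r = 0.16 and 0.25).

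Ctss, the cathepsin, was the member that was higher in every High mouse. It read 2461, 7086, 4548, 2399.6 and 2526 in High and 1938, 2389, 1545, 1813 and 1032 in Low Exploration. The groups nearly touched, at 2399.6 in High replicate 4 and 2389.3 in Low replicate 2, and High replicates 2 and 3 stood above the rest. Ctss was 2.05-fold higher in High Exploration, a difference of 1.03 (SE 0.45, unadjusted p = 0.0378, adjusted p = 0.213). Its mean percentile was 95.1 ± 1.56 against 91.9 ± 2.79 (SD, n = 5, exact permutation p = 0.0317). Quantile normalisation and cyclic loess made its groups overlap, at differences of 0.81 and 0.72, and median centring and equal hybridisation controls kept them apart, at 1.57 and 1.64.

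**Figure D4:**
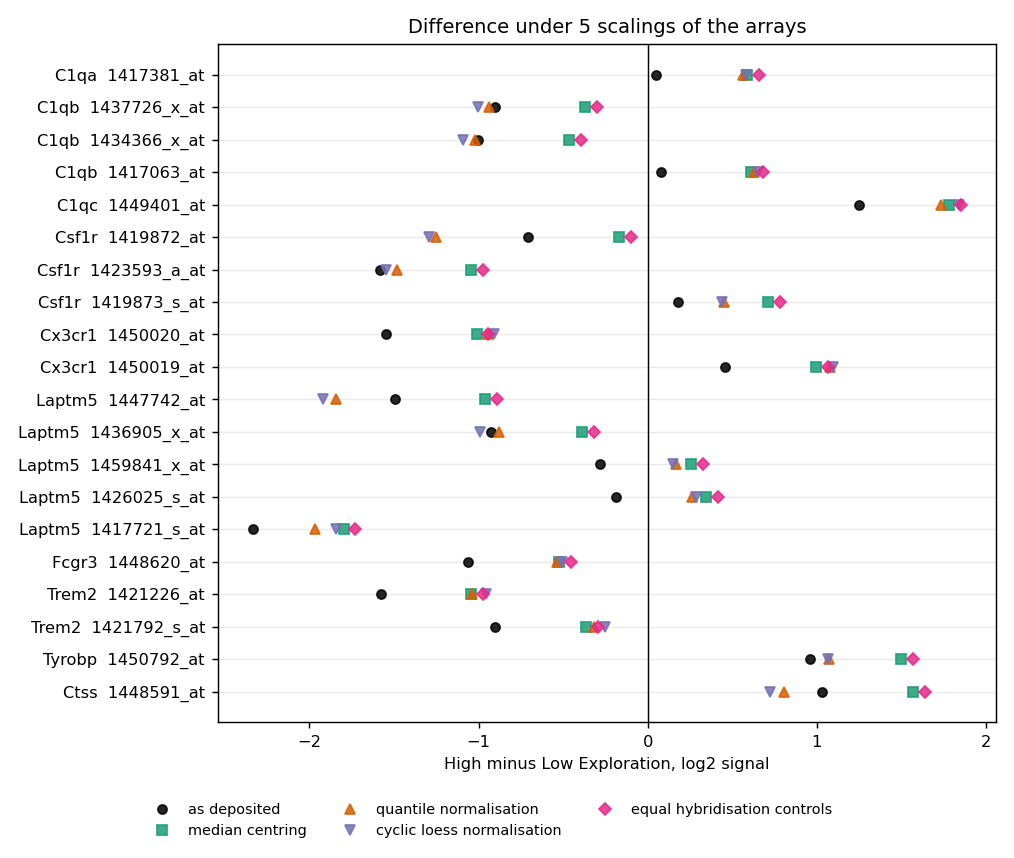
Log2 difference (High minus Low Exploration, horizontal axis) of the 20 member probe sets with the signals as deposited and under 4 rescalings of the arrays. The points of the Laptm5 probe sets 1459841_x_at and 1426025_s_at cross 0, and the other 18 keep their side.

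Of the 10 genes, 5 had several probe sets, and in C1qb, Csf1r and Cx3cr1 these differed in sign. Over the 18 pairs of probe sets of a gene, the median r across the 10 arrays, with groups and array medians taken out, was 0.17. Over all genes it was 0.04 across 30372 pairs. Among pairs with both probe sets above the median of mean signals it was 0.16 for 16 member pairs and 0.11 for 10004 pairs of all genes. In 3 of the 18 member pairs r was above 0.5, a share of 16.7% beside 13.2% of all pairs. High replicate 3 was the highest of its group in 8 of the 20 probe sets, where it was so in 21.9% of all probe sets, and High replicate 1 the lowest in 9, beside 21.4% of all. Low replicate 5 was the highest of its group in 9, beside 23.6% of all, and had the highest median signal of the arrays. Low replicate 1 was the lowest in 7, beside 22.7% of all.

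The other microglial genes did not share a direction either, and limma called 0 of them. Of 12 listed, 11 had a probe set with that single symbol, 5 differed above 0 and 6 below, with a median of −0.25, and 0 had an unadjusted p under 0.05. On all 10 arrays, 0 of the 11 read above the olfactory receptor level, and their summed signal was 1666 to 3721 in High and 2018 to 4130 in Low Exploration. Aif1, the cytoskeletal marker of microglia, ranged from 56.3 to 742 in High and 34.3 to 317 in Low Exploration, with a difference of 1.06 (SE 0.76, adjusted p = 0.424). P2ry12, a receptor for ATP and ADP, and Tmem119 differed by 0.34 (adjusted p = 0.673) and −0.79 (adjusted p = 0.338). Gpr34, a lipid receptor, and Itgam, a chain of the complement receptor for C3 fragments, differed by 1.01 (adjusted p = 0.236) and −1.30 (adjusted p = 0.241). P2ry12 and Itgam exceeded the olfactory receptor level on 0 arrays. Over all probe sets 69.0% differed below 0, and at an unadjusted p under 0.05, 16.8% were lower and 4.48% higher.

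Of the other genes listed for the complement pathway, 19 of 24 were measured, and limma called 0. Of these, 5 differed above 0 and 14 below, beside 69.0% of all probe sets below, and the median was −0.62. At an unadjusted p under 0.05, 6 were lower and 1 higher, against 16.8% and 4.48% of all probe sets. Masp1, a protease of the lectin pathway, read 335 to 471 in High and 768 to 936 in Low Exploration, without overlap (difference −1.16, adjusted p = 0.140). Cfp, properdin, which stabilises the alternative convertase, differed by −1.72 (adjusted p = 0.144). C1ra, a protease that C1q carries, differed by −0.91 (adjusted p = 0.326), at signals under 72.

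The groups overlapped for each ligand of the receptors. Cx3cl1, the ligand of Cx3cr1, differed by −0.87 (adjusted p = 0.298), and Csf1 and Il34, the ligands of Csf1r, by −0.44 (adjusted p = 0.674) and −0.35 (adjusted p = 0.785). Limma called 0 of the 3, and 0 had an unadjusted p under 0.05. Cx3cl1 exceeded the olfactory receptor level on 0 arrays.

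Genes of Tyrobp and Trem2 signalling were measured for 12 of 14, of which limma called 0. Differences were below 0 for 9 and above it for 3, beside 69.0% of all probe sets below, and the median was −0.76. At an unadjusted p under 0.05 there were 3 lower and 1 higher, against 16.8% and 4.48% of all probe sets. Sirpa, an inhibitory receptor of phagocytosis, read 159.8 to 293 in High and 304 to 863 in Low Exploration, without overlap (difference −1.37, adjusted p = 0.144). Treml2, a relative of Trem2, differed by −1.84 (adjusted p = 0.146) and exceeded the olfactory receptor level on 1 array. Apoe, a lipid carrier that Trem2 binds, ranged from 61.6 to 3349 in High and 74.0 to 816 in Low Exploration, with the largest difference above 0 on this list, 2.19 (SE 0.97, adjusted p = 0.222).

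The list of Fc receptor genes held Fcgr1, Fcgr2b and Fcgr4, of the family of Fcgr3, besides Fcer1g and Fcgrt. All 5 were measured, limma called 0, and 1 was lower at an unadjusted p under 0.05, against 16.8% of all probe sets. Differences were below 0 for 4, beside 69.0% of all probe sets, with a median of −1.17. Fcgrt was the 1 above 0 (0.19, adjusted p = 0.900). Fcgr1, the high affinity receptor, read 20.1 to 45.3 in High and 73.4 to 352 in Low Exploration, and differed by −2.44 (SE 0.48, adjusted p = 0.0955). Its groups did not overlap, but it exceeded the olfactory receptor level on 0 arrays. Fcgr4 differed by −1.30 (adjusted p = 0.274) and also exceeded that level on 0 arrays, as did 4 of the 5 genes in all. Only Fcgr2b exceeded it on all 10 arrays, at 515 to 3880 in High and 1787 to 8013 in Low Exploration (difference −1.17, adjusted p = 0.306).

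The list that joined cathepsins, the family of Ctss, with other lysosomal genes and inhibitors of cathepsins had a median of 0.51. Of 16 measured genes, 10 were above 0 and 6 below, beside 69.0% of all probe sets below. Limma called 0, and 1 was higher and 0 lower at an unadjusted p under 0.05, against 4.48% and 16.8% of all probe sets. Ctsb, another cathepsin, ranged from 566 to 2698 in High and 307 to 864 in Low Exploration (difference 1.15, adjusted p = 0.232). Cst3, cystatin C, an inhibitor of cathepsins, differed by 0.96 (adjusted p = 0.277).

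Transcription factors of microglia were measured for 7 of 8, with 5 below 0, 2 above, a median of −1.02, 0 called by limma and 1 lower at an unadjusted p under 0.05. Spi1, which encodes PU.1, ranged from 95.7 to 546 in High and 199 to 645 in Low Exploration and differed by −1.02 (SE 0.53, adjusted p = 0.280). Irf8 and Irf5, factors of the interferon family, differed by −1.73 (adjusted p = 0.207) and −1.13 (adjusted p = 0.261). Among 19 of 20 genes of reactive microglia, limma called 0, 12 differed below 0 and 7 above (median −0.68), with 4 lower and 1 higher at an unadjusted p under 0.05. Cd74, a chain used in antigen presentation, read 22.0 to 317 in High and 340.5 to 522 in Low Exploration, without overlap (difference −1.62, adjusted p = 0.190). The chemokine Ccl2 differed by −1.94 (adjusted p = 0.182). Cd74 and Ccl2 exceeded the olfactory receptor level on 0 arrays, and Irf8 and Irf5 on 1 each. For both lists, the shares over all probe sets were 69.0% below 0, and 16.8% lower and 4.48% higher at an unadjusted p under 0.05.

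Markers of other cells of the tissue were set beside these values, and limma called 0 in each list. At an unadjusted p under 0.05 there were 1 neuronal and 1 astrocyte gene higher, 2 endothelial, 1 lymphocyte and 1 blood gene lower, and 0 in the other lists. Over all probe sets 4.48% were higher and 16.8% lower at that p, and 69.0% differed below 0. Among the 22518 probe sets above the median of mean signals, the median difference was −0.31, beside −0.47 over all. The part of signal level in the directions of the lists was not tested. The 5 neuronal genes all differed above 0, with a median of 0.71, and their summed signal was 18681 to 51900 in High and 10646 to 20246 in Low Exploration. Nefl, a neurofilament, read 5971 to 18112 in High and 2927 to 5660.3 in Low Exploration, without overlap (difference 1.34, adjusted p = 0.146), and Syt1, of synaptic vesicles, differed by 1.04 (adjusted p = 0.249). Of the 6 astrocyte genes 4 differed above 0 (median 0.42), at sums of 44560 to 72198 and 24979 to 41415. Gja1, a gap junction protein, read 30488 to 43357 in High and 8698 to 24167 in Low Exploration, without overlap (difference 1.25, adjusted p = 0.150), and the water channel Aqp4 differed by 0.75 (adjusted p = 0.445). Of the 4 oligodendrocyte genes measured, 3 differed above 0 (median 0.64), Mobp by 0.66 and Mog by 1.55 (adjusted p = 0.323 and 0.331), at sums of 42823 to 91918 and 35426 to 101359. Of the neuronal genes 4 of 5, and of the astrocyte genes 5 of 6, read above the olfactory receptor level on all 10 arrays. Mog did so on 0 arrays.

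All 5 endothelial genes differed below 0 (median −1.03), Cdh5 by −1.95 and Flt1 by −1.68 (adjusted p = 0.144 and 0.216), and their sums were 643 to 1654 in High and 1264 to 3369 in Low Exploration. The 6 border macrophage genes, which share a lineage with microglia, had 4 below 0 (median −0.49) and sums of 1388 to 1806 and 990.2 to 2088. Mrc1 differed by −1.52 (adjusted p = 0.267), and Pf4, higher in every High mouse, by 0.66 (adjusted p = 0.291). Monocyte and neutrophil genes had 3 of 5 below 0 (median −0.32), Camp by −1.81 and Ngp by −0.43 (adjusted p = 0.325 and 0.599), at sums of 1325 to 2812 and 1447 to 3589. Lymphocyte genes had 2 of 3 below 0 (median −0.98), with Ms4a1 at −1.29 without overlap and Cd3g at −0.98 (adjusted p = 0.146 and 0.357), and blood had 2 of 2 (median −1.17), with Hba-a1 at −2.06 and Alas2 at −0.29 (adjusted p = 0.152 and 0.829). Sums for lymphocyte genes were 358 to 1913 and 792 to 1728, and for blood 65.8 to 245 and 189 to 368. Choroid plexus genes had 4 of 5 below 0 (median −0.71), Kl by −1.55 and Clic6 by −1.19 (adjusted p = 0.270 and 0.324), at sums of 20817 to 34755 and 16951 to 28563. Ttr, by far the brightest of them, differed by 0.57 (adjusted p = 0.405), at 17884 to 33651 in High and 12578 to 24239 in Low Exploration. It made up most of these sums and read above the olfactory receptor level on all 10 arrays. Cdh5, Mrc1, Cd3g, Hba-a1, Alas2 and Kl exceeded the olfactory receptor level on 0 arrays. Of all probe sets, 69.0% differed below 0. The part of these cells in the values of the microglial genes was not tested.

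**Figure D5:**
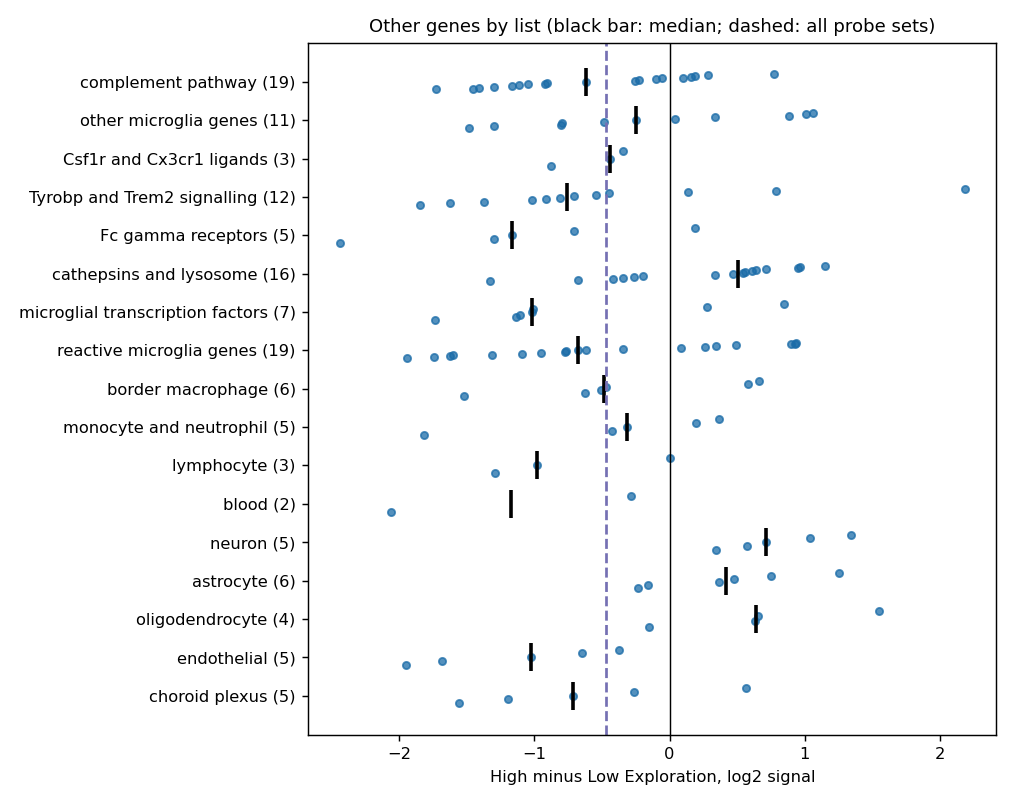
Log2 difference (High minus Low Exploration, horizontal axis) of the genes of 17 lists, each by its brightest probe set, with the number of measured genes in parentheses; black bars are list medians and the dashed line is the median of all probe sets, −0.47. Signals are as deposited. Neuronal genes and most lysosomal genes lie above 0. Most complement and Fc receptor genes and all endothelial genes lie below it, as do 69.0% of all probe sets. Limma called none of the list genes.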

How the data were processed

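Whole hippocampus gave total RNA, per the labels on Qiagen RNA/DNA columns (the methods name these columns or Trizol), of which 6 ug per mouse was labelled with biotin for 1-colour Affymetrix mouse arrays. The labels describe the standard protocol and the methods a double round of amplification, so which was used is not settled. The deposited values are probe set intensities (signals) that the authors computed with MAS 5.0, which subtracts background and multiplies each array by a constant. Trimmed by 2% at both ends, every array averaged 500.0. The table had 45101 probe sets, of which 64 controls were left out. GEO's platform annotation gave 1 symbol to 34958, several to 932 and none to 9211, and genes were named only from 1 symbol. Log2 signals, as deposited and without a filter, were compared in R 4.3.3 with limma 3.58.1 (lmFit and eBayes, Benjamini-Hochberg over 45037 probe sets, threshold 0.05). Percentiles within arrays got a 2-sided exact permutation test over all splits into 5 and 5. The number of arrays limits the precision. A gene in a list stands for its brightest probe set. Named genes were all members, the 2 of each list with the smallest limma p, a fixed set (Aif1, P2ry12, Tmem119, Itgam, Csf1, Il34, Cx3cl1 and Apoe, while C3 and C4b are not analysed here), and the 5 most like C1q. Spi1, C1ra, Ttr, Fcgr2b, Fcer1g and Fcgrt were named after their values were seen. Of 148 list genes, 15 had no probe set of 1 symbol. Members and lists were chosen with earlier results of these data known. Alternatives were 4 rescalings, a filter, a floor, a pseudocount, array weights, a trended robust fit and leaving out each array.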

Additional observations from a re-analysis of the deposited data

How the results depend on the processing

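Limma called 0 of the 20 member probe sets in 18 of the 19 alternatives, and 0 of the 15 that passed in the remaining one, a filter on low signals, where Laptm5 1417721_s_at had the lowest adjusted p, 0.0581. Over all probe sets, 32 were called as deposited. That number was 1 after median centring, 1 after quantile normalisation, 1 after cyclic loess and 1 with equal hybridisation controls, and was 3 with the filter, 58 with a pseudocount and 2 with a trended robust fit. Leaving out 1 array gave 0 to 50, the highest without High Exploration replicate 5 and 0 without High replicate 1, 2 or 4 or Low replicate 2, 4 or 5. The rescalings moved the median difference of all probe sets from −0.47 to between −0.02 and 0.14.

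The number of member probe sets without overlap, 3 as deposited, was 1 (Ctss) with equal hybridisation controls. Laptm5 1459841_x_at turned to 0.26, 0.17, 0.15 and 0.33 after median centring, quantile normalisation, cyclic loess and equal hybridisation controls, and Laptm5 1426025_s_at to 0.35, 0.26, 0.29 and 0.42. With array weights C1qa turned to −0.27 and C1qb 1417063_at to −0.050. Leaving out 1 array gave −0.38 to 0.50 for C1qa, −0.15 to 0.34 for C1qb 1417063_at, −0.34 to 0.76 for Csf1r 1419873_s_at, −0.52 to 0.17 for Laptm5 1459841_x_at and −0.40 to 0.0054 for Laptm5 1426025_s_at, each across 0.

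The 5 member probe sets with a percentile p under 0.05 became 3 without High replicate 2 and 8 without Low replicate 1. Leaving out 1 array gave percentile differences of −2.75 to 11.0 for Csf1r 1419873_s_at, −1.53 to 9.52 for Laptm5 1459841_x_at, −14.5 to 3.28 for Trem2 1421226_at and −5.57 to 0.73 for Trem2 1421792_s_at, also across 0. In all, 352 member log2 values and 180 percentile values kept their direction and side of the threshold. Direction reversed in 23 log2 and 11 percentile values. Percentile values crossed to a p under 0.05 in 13 cases and back above it in 11. The cause of these changes was not tested. No paired analysis was possible because the labels number the mice without shared numbers between the groups. Only 6 of the 20 member probe sets read above the olfactory receptor level on all arrays, which limits what the others can show.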
